A study of Mus musculus with 12 samples.

Results

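The miRNAs described here are those known mainly from blood cells: miR-142, miR-150, miR-223, miR-144, miR-451 and miR-486. They were read in whole pancreatic islets, where white and red cells are a minority beside the hormone-secreting endocrine cells. Members were chosen by name, ignoring species prefix and arm and leaving out starred minor strands (names ending in #), which gave 8 of 846 assay spots on the panel, or 8 of its 750 miRNA spots. A ratio was listed for 7 of the 8. The islets came from male C57BL/6 offspring aged 2 to 3 months whose mothers ate a low-protein diet (LP0.5) through pregnancy (6 samples) or a control diet through pregnancy (6 samples), and the comparison asks which islet miRNAs differ after that exposure. In both groups islets were freed with collagenase, picked by hand and left overnight in culture before RNA was extracted. MiRNAs were measured by TaqMan real-time PCR.

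For each assay the authors' deposited table holds 1 linear ratio, headed as LP0.5 against Control, with no values per sample and no error. No ratio below therefore has a replicate check, an n of its own or a p-value. Only if the heading is taken as written does a ratio above 1 stand for more of the miRNA in LP0.5 islets: the study is known for naming miR-199a-3p as raised in LP0.5 islets, while the authors' deposited table lists it at 0.422. Directions are for this reason given as listed above or below 1. If the ratio ran the other way, each value would be its inverse and the order of the miRNAs would be turned round, with miR-142-5p highest and miR-150 lowest. In whole islets, fewer blood cells and less of a miRNA per cell cannot be told apart.

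These miRNAs mark different branches of blood formation. MiR-142 is made in nearly all blood lineages, and its hairpin releases a pair of strands that are both used. MiR-223 is the characteristic miRNA of neutrophils, monocytes and macrophages, where it restrains granulocyte production and inflammatory signalling. MiR-150 is abundant in mature B and T lymphocytes and limits the transcription factor Myb. MiR-144 and miR-451 are made from 1 shared transcript switched on by the erythroid factor GATA1 and protect developing red cells from oxidative stress. MiR-451 is unusual in that Argonaute2, not Dicer, cuts its precursor. MiR-486 is encoded inside Ank1, the gene of the red cell membrane protein ankyrin, and is abundant in red cells and in muscle. Resident macrophages, capillary blood and passing lymphocytes are the usual sources of such RNA in islets.

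The mature sequences are shown to compare their seeds. A miRNA pairs with its targets mainly through the seed, bases 2 to 8 from the 5′ end, printed here in capitals. RefSeq sequences of mouse assembly GRCm38.p6 were matched to 6 of the 8 assays, and miR-150 and miR-486 are named only. The panel names of the miR-142, miR-223 and miR-144 assays are human ones, and the names of miR-223 and miR-144 give no arm, so the mouse 3p strand, the main strand by common usage, is shown for both.
miR-142-5p: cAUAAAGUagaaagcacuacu
miR-142-3p: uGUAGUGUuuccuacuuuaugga
miR-223-3p: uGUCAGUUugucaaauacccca
miR-144-3p: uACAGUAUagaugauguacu
miR-451a: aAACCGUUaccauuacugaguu
The 5 seeds are all different, and no other of the 1738 mature mouse miRNAs in the table has any of them. The strands are 20 to 23 bases long and hold from 30.0% G and C in miR-144-3p to 40.9% in miR-223-3p.

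Hairpin precursors are shown for miR-142, because its arms were listed on opposite sides of 1, and for miR-451, because of its unusual maturation. Mature strands are in capitals. The Mir142 hairpin lies at chr11:87756864-87756927 (GRCm38.p6, plus strand) and carries the 5p arm at bases 4 to 24 and the 3p arm at bases 40 to 62.
Mir142: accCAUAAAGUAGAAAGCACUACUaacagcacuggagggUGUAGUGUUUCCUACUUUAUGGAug
The Mir451a hairpin lies at chr11:78073170-78073241 (GRCm38.p6, plus strand), and its mature strand fills bases 17 to 38 of 72.
Mir451a: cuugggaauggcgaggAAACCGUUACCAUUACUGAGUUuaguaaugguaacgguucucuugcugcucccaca
The Mir144 hairpin ends 99 bases before it on the same strand. Both Mir142 and Mir451a have an annotated hairpin on the opposite strand, Mir142b and Mir451b, which no assay of the rule names.

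The 7 assays with a ratio were listed on both sides of 1, in shares near those of the whole panel. Listed above 1 were 4 assays (both of miR-223, miR-142-3p and miR-150), and listed below 1 were 3 (miR-142-5p, miR-451 and miR-486). Of all 566 miRNA spots with a ratio, 50.9% were above 1 and 49.1% below. MiR-142-5p was the farthest of all 7 from 1. At least 1.5-fold from 1 were 3 of the 7, against 35.3% of all 566 miRNA spots with a ratio. By direction, 1 of 7 lay at least 1.5-fold above 1, where the share of all miRNA spots was 18.6%, and 2 of 7 lay as far below 1, where it was 16.8%. At a 2-fold limit miR-142-5p alone was left, as 1 of 7 below 1 against 11.8% of all miRNA spots, and 0 of 7 were above 1 against 12.4%. With 7 assays these counts are near the panel's own shares and set the blood cell miRNAs apart in neither direction.

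The median ratio of the 7 assays was 1.18, against 1.01 for all 566 miRNA spots. That median is the value of a miR-223 assay, and miR-223 was counted with 2 assays. With its pair averaged first on the log2 scale, 3 of the 6 names were above 1 and 3 below, and their median was 0.912. The side of 1 on which the group's median falls thus depends on counting miR-223 once or as 2 assays.

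**Figure D1:**
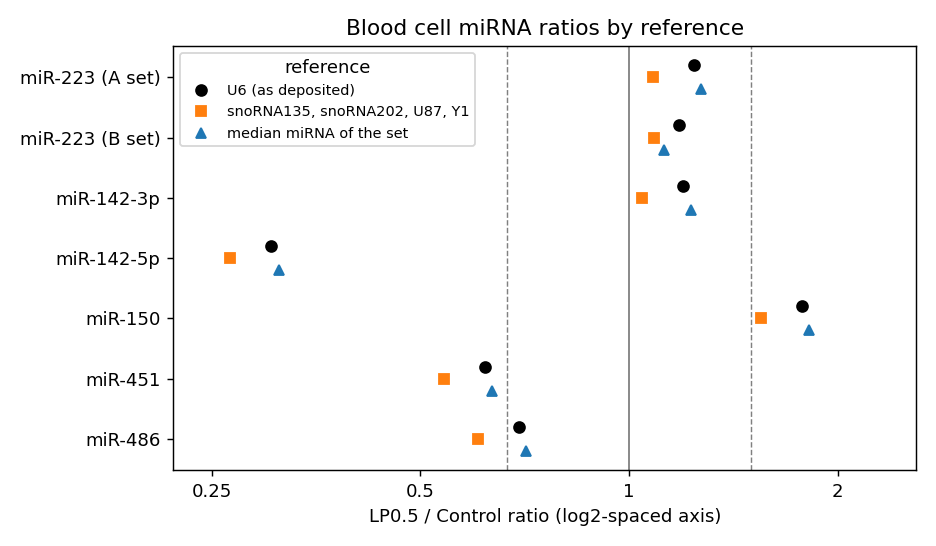
Ratio of LP0.5 over Control (horizontal, log2-spaced axis) for the 7 blood cell miRNA assays with a ratio, as deposited relative to U6 (circles), relative to snoRNA135, snoRNA202, U87 and Y1 (squares) and relative to the median miRNA of the assay set (triangles). The solid line marks 1 and the dashed lines 1.5-fold from it; no assay crosses 1, and miR-486 crosses the lower dashed line with the squares.

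The panel is split into an A and a B set of assays, and within each set the U6 spots average to 1. Every ratio was for this reason read as relative to U6, which the sources used here do not state. The A set holds 6 of the 8 members, and the B set holds the second miR-223 assay and miR-144. Repeated spots of 1 small RNA control gave a scale for technical spread: over 80 control spots, the distance of a spot from the median of its control reached 1.37-fold at the 95th percentile. These spots include those of U6 itself, which lie close to 1 and make the scale narrower. Each median was taken over both sets. A wider scale came from 36 miRNA names, matched without species prefix, that were measured by a pair of assays. The assays of a pair can thus carry names of different species. Their ratios differed by a median of 1.38-fold and at the 95th percentile by 6.08-fold. All 7 member ratios lie nearer to 1 than this last value. Neither scale includes the spread between animals.

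MiR-223, the myeloid miRNA, was listed slightly above 1 by both of its assays. In the authors' deposited table the A set assay had a ratio of 1.24 and the B set assay had 1.18. Both values lie inside the 1.37-fold spread of control spots. The pair differed by 1.05-fold, and of the 36 names with paired assays 4 had a closer pair and 31 a wider one. The assays thus gave nearly the same ratio although they sit in different sets with their own U6 spots. Relative to snoRNA135, snoRNA202, U87 and Y1, the A set assay came to 1.08 and the B set assay to 1.09.

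MiR-142, made in nearly all blood lineages, was listed on opposite sides of 1 by its arms. The authors' deposited table gave miR-142-3p a ratio of 1.20 and miR-142-5p a ratio of 0.305. Both assays belong to the A set and share their U6 reference, so a change of reference moves the arms together and leaves the 3.93-fold difference between them as it is. MiR-142-3p lay close to both miR-223 assays, with 165 of the 566 miRNA spots listed higher. MiR-142-5p lay 3.28-fold below 1, and 42 miRNA spots were listed lower. Arms listed this far apart were not rare on the panel: among 27 hairpin names with a ratio for a 3p and a 5p assay, names matched without species prefix, the median difference was 1.43-fold, 18 pairs were closer than those of miR-142 and 8 were wider, and 13 pairs lay on opposite sides of 1. The threshold cycles behind either arm were not analysed here.

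**Figure D2:**
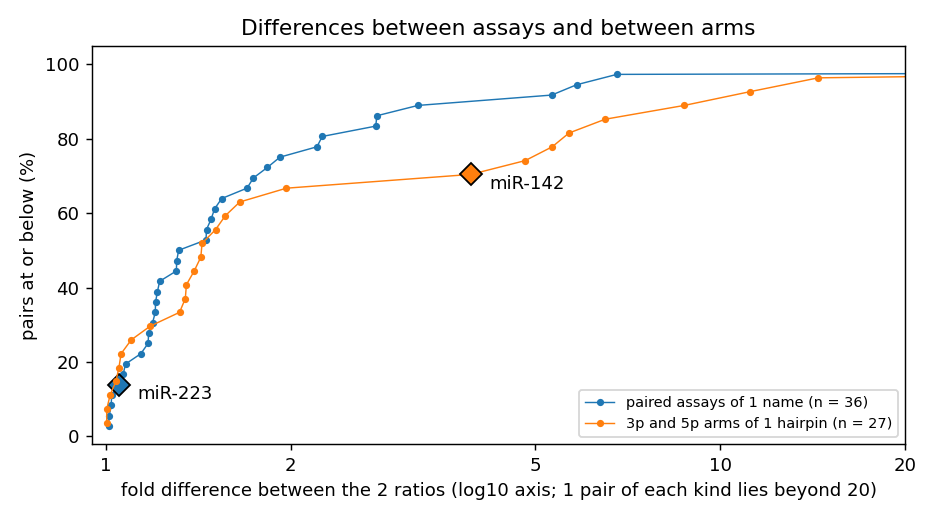
Share of pairs (vertical, percent) at or below a given fold difference between their ratios (horizontal, log10 axis), for 36 names with paired assays and for 27 hairpins with a 3p and a 5p assay; 1 pair of each kind lies beyond the axis end of 20. Diamonds mark the miR-223 assays, 1.05-fold apart, near the low end, and the miR-142 arms, 3.93-fold apart, above most arm pairs.

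MiR-150, the lymphocyte miRNA, had the highest listed ratio of the group. Its ratio in the authors' deposited table was 1.78, with 78 of the 566 miRNA spots listed higher and 487 lower. This is outside the 1.37-fold spread of control spots. It is above the median difference of paired assays, 1.38-fold, and below their 95th percentile, 6.08-fold. These last values are differences between 2 ratios, an unlike measure to the distance of 1 ratio from 1. It stayed at least 1.5-fold above 1 relative to snoRNA135, snoRNA202, U87 and Y1, at 1.55, and relative to the median miRNA of its set, at 1.82. MiR-150 has no second assay among the members that could be set beside it.

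The red cell miRNAs with a ratio were both listed below 1. MiR-451 stood at 0.620 in the authors' deposited table, 1.61-fold below 1, with 83 miRNA spots listed lower. MiR-486 stood at 0.694 in the authors' deposited table, 1.44-fold below 1 and short of the 1.5-fold limit, with 105 miRNA spots listed lower. The values of miR-451 and miR-486 differed by 1.12-fold, which is inside the spread of control spots. Relative to snoRNA135, snoRNA202, U87 and Y1 both passed the limit, with miR-451 at 0.541 and miR-486 at 0.605. The whole panel moved down with that reference: its median became 0.900, and the share of miRNA spots at least 1.5-fold below 1 became 23.0%, against 16.8% relative to U6.

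MiR-144, the partner of miR-451 in its transcript, had no ratio. It is 1 of 184 miRNA spots (24.5%) without one, and in its B set 29.8% of miRNA spots had none. The red cell pair therefore rests on miR-451 and miR-486 alone. Among the 7 members the listed ratios spanned 5.83-fold, from miR-150 to miR-142-5p. MiR-451 lay between them, with the ratio of miR-150 at 2.87-fold its own.

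**Figure D3:**
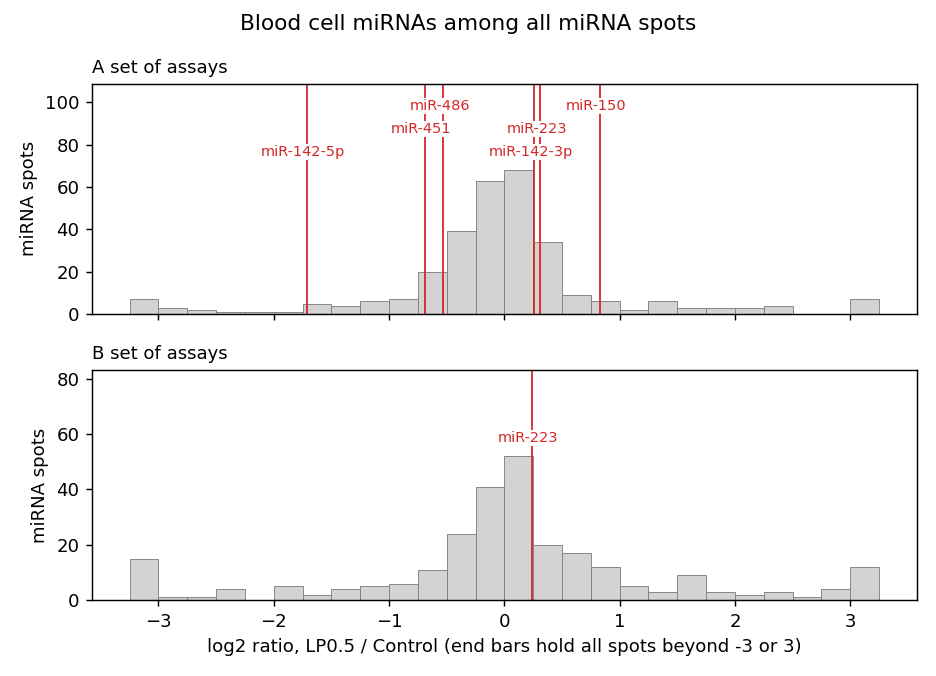
Number of miRNA spots (vertical) by log2 ratio of LP0.5 over Control (horizontal) in the A set, with 304 ratios, and the B set, with 262; the end bars hold all spots beyond -3 or 3. Red lines mark the blood cell miRNAs: miR-142-5p at -1.71 and miR-150 at 0.83 lie in sparse bars of the A set, with 5 and 6 spots. MiR-451 at -0.69 and miR-486 at -0.53 lie below the centre. The miR-223 assays and miR-142-3p lie from 0.24 to 0.31, in or next to the tallest bar of their set.

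Other miRNAs linked to white cells did not follow miR-150 as a group. The list held miR-155, an activation miRNA of lymphocytes and macrophages, the inflammation-induced miR-146a, miR-146b and miR-21, and miR-181a, miR-181b and miR-342-3p, all of which other tissues also make. No panel name matched miR-181b. Of 7 assays with a ratio, 4 were above 1 and 3 below, with 1 at least 1.5-fold above, none as far below and a median of 1.06. Of all miRNA spots, 50.9% were above 1, 18.6% at least 1.5-fold above and 16.8% as far below. These counts are thus near the panel's own shares. The ends of the range in the authors' deposited table were miR-155 at 1.59 and miR-146b at 0.811. For a second miR-146b assay, of the B set, the authors' deposited table gave 1.06. Relative to snoRNA135, snoRNA202, U87 and Y1 the list had 3 above 1 and 4 below, with a median of 0.981, and the ratio of miR-155 became 1.38.

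Other miRNAs linked to red cells or their formation lay on both sides of 1. The list held miR-15b, miR-16 and miR-92a, which are plentiful in red cells and widely expressed, miR-221 and miR-222, which limit erythropoiesis through Kit, and miR-24. Of 6 assays, 2 were above 1 and 4 below, none at least 1.5-fold above and 1 as far below, with a median of 0.917. All 6 belong to the A set, where 52.3% of miRNA spots were below 1. Of all miRNA spots, 18.6% lay at least 1.5-fold above 1 and 16.8% as far below. In the A set these were 40 and 48 of 304 spots. The counts of the list are thus near the panel's own shares. Relative to snoRNA135, snoRNA202, U87 and Y1 the list again had 2 above 1 and 4 below, with a median of 0.800. The ends in the authors' deposited table were miR-92a, named miR-92 on the panel, at 0.460 and miR-221 at 1.28. MiR-221 and miR-222 come from 1 cluster and stood on opposite sides of 1, where the authors' deposited table put miR-222 at 0.880.

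Markers of the other islet cells gave the following ratios beside these. MiR-375, the main endocrine miRNA of islets, stood at 1.17 in the authors' deposited table, close to miR-223 and miR-142-3p. Of the acinar markers, miR-216a, miR-216b and the pair of miR-217 assays, the authors' deposited table listed 1 ratio above 1 and 3 below, from 0.726 to 1.83. The endothelial miR-126 had 0.975 in the authors' deposited table. The mesenchymal markers gave the widest range, with miR-145 at 2.66 and the paired assays of miR-143 at 1.11 and 0.190 in the authors' deposited table. Ratios carry no level, so how much RNA of any cell type the islets held could not be read from them, and the part of blood or other cell content in the results was not tested.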

How the data were processed

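MiRNAs were measured by TaqMan RT-PCR with FAM probes in 6 LP0.5 and 6 Control islet samples, per the labels' protocols. The authors deposited 1 linear ratio (fold value) per spot, per the file headers; limma is named in the submitters' processing notes, and how samples were normalized and averaged is not given in the sources used here. Another deposited table supplied assay numbers and names. Its 12 columns of per-sample values have names that match no sample label and were not used, so the planned limma fit was not run; depth and threshold cycles were not analysed. Replicates could thus not be compared.

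Tables were joined on the spot code, whose first digit gives the assay set. Ratios were taken to log2. The limit of 1.5-fold describes and is no test. Alternatives changed the reference or the limit. All members and 13 further miRNAs in 2 lists, of which the ends of each range are named, with cell markers, were chosen with earlier results of these data known; miR-146b of the B set, miR-222 and the markers' values were named in addition. The pairs of assays and arms were also chosen afterwards. Counting and referencing were tested on simulated data. Python 3.11.15, numpy 2.4.6, pandas 2.3.3 and matplotlib 3.10.9 were used.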

Additional observations from a re-analysis of the deposited data

How the results depend on the processing

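No paired analysis was possible because the per-sample columns carry no replicate number or sample label; the limma fit with its alternatives (replicate block, leaving out samples, another normalization) was not run. Values here are log2 ratios. With snoRNA135, snoRNA202, U87 and Y1 as the reference, which moves A set ratios by 0.20, miR-451 came to -0.89, miR-142-3p to 0.064, miR-142-5p to -1.91, miR-150 to 0.63, the A set miR-223 assay to 0.12 and miR-486 to -0.72, and the median of the 7 assays to 0.064. Without 1 outlying U87 spot in the B set, an alternative chosen after seeing the data, the B set miR-223 assay came to 0.028, as did the median, while the A set values stayed as just given. With the assays of 1 name averaged, the median was -0.13, against 0.24 for separate assays. At a 2-fold limit the counts were 0 above and 1 below, against 1 and 2 at 1.5-fold; 24.2% of all miRNA spots passed 2-fold. With the median miRNA of each set as the reference, the counts stayed at 1 and 2 and the values moved by less than 0.15, the median SD of repeated control spots. Under the 3 other references each of the 7 assays stayed on its side of 1. A single ratio per assay limits the precision, which cannot be given.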

Other observations

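The starred minor strand of miR-150, left out by the choice of members, had a ratio of 0.667 in the authors' deposited table (assay 002570, B set), on the other side of 1 from the main strand at 1.78 and 2.66-fold from it. It was the only starred strand listed on the panel under the 6 names. The plant assay ath-miR159a, which has no mouse target, had a ratio at all 8 of its B set spots, from 2.59 to 3.37 in the authors' deposited table, and at 2 of its 8 A set spots, which the authors' deposited table lists at 0.139 and 1.96. The A set holds 6 of the 7 blood cell miRNA ratios and the B set 1, that of a miR-223 assay. The part of such signal in these ratios was not tested.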
